A study of Homo sapiens with 12 samples.

Results

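The genes of the structural extracellular matrix were followed through the knockdown: every protein-coding gene in either count table named COL, number, A, number (collagen chains), LAMA, LAMB or LAMC plus a number (laminin chains), LOX or LOXL1 to LOXL4 (lysyl oxidases), or FN1 (fibronectin). The rule used symbols only, and 62 genes met it out of 17470 protein-coding and 28704 genes listed in all. They are 44 collagen, 12 laminin and 5 lysyl oxidase genes and FN1. Each table lists 58 of them, and 54 stand in both. The samples were 12 RNA-seq libraries from human hepatoma cell lines labelled Hep-3B and Huh-7. For each of the lines, 3 libraries were made from cells transfected with a negative-control siRNA (control) and 3 from cells transfected with an siRNA against ARD1 (siARD1), the older name of NAA10, which encodes the catalytic subunit of the NatA N-terminal acetyltransferase. The series concerns ARD1, glutathione and ferroptosis, and states no question about the matrix. No dose or time after transfection is given in the labels, each knockdown rests on siRNA named only by its target, and nothing says that replicates were separate cultures, so p-values measure only the spread between libraries.

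Collagens are triple helices of 3 chains, which assemble into fibrils, networks or filaments according to type, while laminins are cross-shaped trimers of an alpha, a beta and a gamma chain that polymerise in basement membranes. Lysyl oxidases are copper enzymes that oxidise lysines of collagen and elastin and so start their cross-linking, and fibronectin is a cell-binding glycoprotein of plasma and matrix. In liver, stellate cells make most fibrillar collagen during fibrosis, hepatocytes secrete plasma fibronectin, and hepatoma lines carry a matrix programme of their own that differs from line to line.

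Total counts were 17327615 to 25960237 per library. NAA10 stood at 48.4, 58.7 and 58.7 CPM (counts scaled to library size with TMM factors) in the Hep-3B controls and at 10.9, 15.6 and 14.4 after siARD1. In Huh-7 it stood at 166, 156 and 200 and then at 13.2, 9.86 and 10, so the groups lay apart in both lines (edgeR adjusted p = 1.36e-07 and 1.66e-08). The libraries labelled Hep-3B held almost no ALB (mean 5.05 CPM in the controls), a gene of hepatocytes that this line is known to express, and are named here by their label only. Their 12 hepatocyte markers summed to 931 to 1133 CPM in the controls and 458 to 541 after siARD1, against 37370 to 39410 and 29170 to 34000 in Huh-7. Genes abundant in one line stood in the other at a trace of 0.0315 to 0.0545% in control libraries, taken as the median over genes of at least 100 CPM in one line and at least 1000-fold less in the other. In the Hep-3B siARD1 libraries the trace was 0.00756 to 0.0160%, lower than in their controls, and in those of Huh-7 0.0319 to 0.0480%. The 1000-fold rule itself limits these shares, so the trace is a descriptive mark and not a measured background. COL6A3 and COL2A1 meet the rule and help set it. Values at or under the share of their group are not read as expression, and whether they are expression was not tested.

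The first comparison set the control libraries of the lines side by side. Line and any difference in the handling of the 2 tables cannot be told apart in it, and levels are on a scale fitted to all libraries together. FN1 had the highest level per length of annotated exon in both lines, at 541 ± 59.8 CPM per kb in Hep-3B and 362 ± 1.99 in Huh-7 (SD, n = 3 each). The genes ranked behind it differed between the lines. In Hep-3B the next per kb were COL6A1 (171 ± 6.73), LAMB1 (113 ± 6.93), COL6A3 (101 ± 8.21), LAMA5 (94.7 ± 6.41) and COL6A2 (93.1 ± 2.78), which are 3 collagen VI chains and 2 laminin chains. Library values overlapped between LAMB1 and COL6A3, between COL6A3 and LAMA5 and between LAMA5 and COL6A2, so the order of these neighbours is not set beyond their spread. LAMC1 (69.2 ± 5.78), LAMB2 (44.2 ± 1.69), LAMB3 (38.2 ± 1.63), LOX (35.0 ± 1.46), LOXL2 (28.8 ± 0.716) and LAMA3 (23.5 ± 1.68) completed the highest 12, and of these neighbours LAMB3 and LOX met at 36.5 CPM per kb. In Huh-7 the order after FN1 was COL2A1 (197 ± 9.83), LAMB1 (71.3 ± 1.72), LAMC1 (69.4 ± 1.60), COL5A2 (49.3 ± 1.59), COL18A1 (30.9 ± 0.784) and LOX (28.3 ± 0.481). LAMB2 (21.0 ± 0.544), LAMA5 (14.3 ± 0.628), COL9A2 (12.1 ± 0.127), COL26A1 (11.1 ± 0.434) and COL27A1 (8.86 ± 0.534) followed at a fraction of these levels. Among these 12 in Huh-7, LAMB1 and LAMC1 were the neighbours whose library values overlapped.

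**Figure D1:**
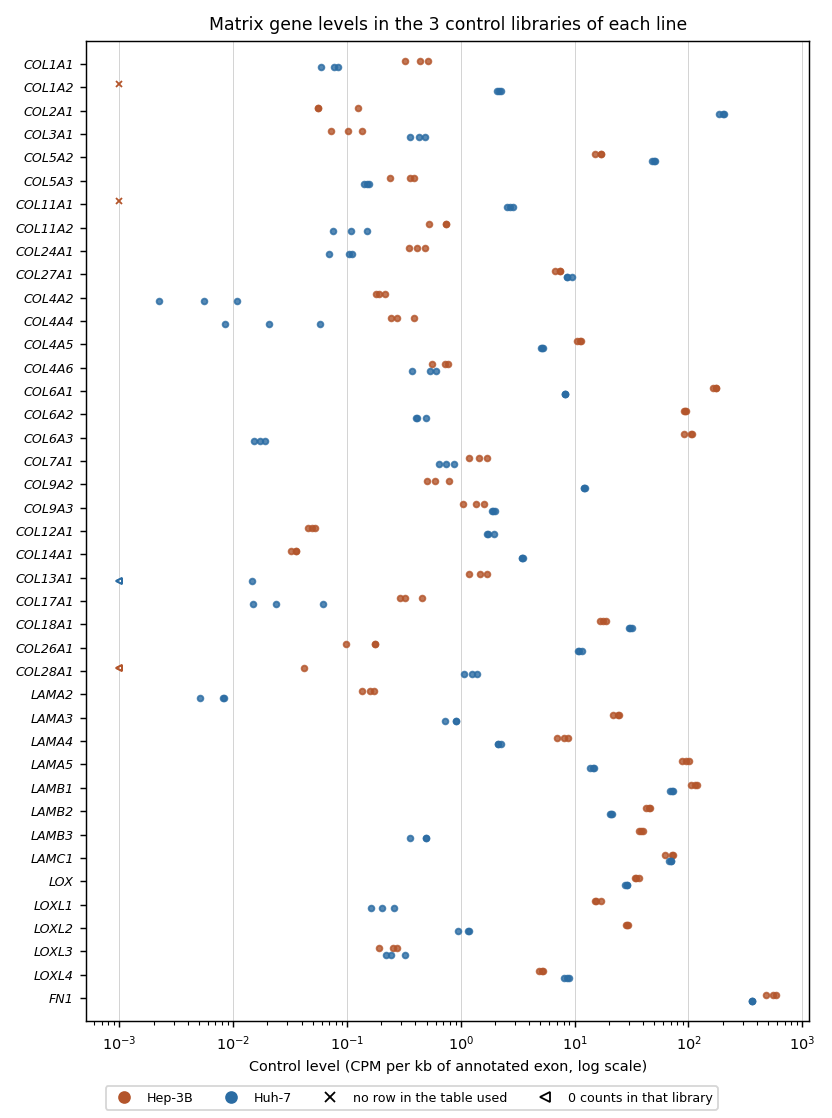
Levels of the matrix genes that reached 1 CPM in the controls of at least one line, as CPM per kb of annotated exon on a log axis, 1 point per control library (brown Hep-3B, blue Huh-7). Crosses mark genes with no row in a table and open triangles libraries with 0 counts, both set at the left edge. FN1 is highest in both lines, COL6A3 and COL2A1 lie at opposite ends of the axis in the lines, and LAMC1 lies at one level in both.

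Of 45 members tested for control levels, 13 were higher and 29 lower in Huh-7, and 3 did not pass the test (COL16A1, LAMC1 and LOXL3). Over all genes of the comparison 81.4% passed, 41.3% higher and 40.1% lower, so a difference in itself is usual, and the sizes carry the description. At least 16-fold separated 17 members that had counts in both lines, 11 of them higher in Hep-3B and 6 in Huh-7. The share of all genes that far apart was not counted, so whether these numbers are usual cannot be said.

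Collagen VI, which forms beaded filaments around cells and needs all its chains, stood high in Hep-3B. COL6A3 gave 1798, 2094 and 2058 CPM in the Hep-3B controls and 0.372, 0.302 and 0.336 in Huh-7 (log2 -12.51, SE 0.13, adjusted p = 1.37e-25). The Huh-7 values are 0.0152 to 0.0188% of those in Hep-3B and lie under the trace share between the lines. COL6A3 is one of the genes that set this share, so its place under it is no test of absence. COL6A1 gave 932, 936 and 872 CPM in Hep-3B and 43.6, 43.8 and 44.4 in Huh-7, 20.7-fold apart, and COL6A2 gave 499, 517 and 488 and 2.66, 2.20 and 2.18, 215-fold apart. The Huh-7 controls held COL6A1 with no COL6A3 level above trace.

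Of the collagens tested, COL2A1, the collagen of cartilage fibrils, lay furthest the other way. It gave 1241, 1369 and 1327 CPM in the Huh-7 controls and 0.371, 0.369 and 0.827 in Hep-3B (log2 11.28, SE 0.13, adjusted p = 3.61e-25). The Hep-3B values were 0.0281 to 0.0630% of the Huh-7 mean, a range that spans the trace share, which this gene also helps set. COL9A2, a chain of the type IX collagen that coats those fibrils, was 19.0-fold higher in Huh-7 (51.1 ± 0.537 against 2.66 ± 0.620 CPM). COL11A1, a type XI chain that is built into cartilage fibrils, stood at 24.8 ± 1.52 CPM in Huh-7 and has no row in the Hep-3B table used here. Other chains of these types did not follow: COL9A3 was 1.46-fold higher in Huh-7, while COL9A1 and COL11A2 were 9.45-fold and 6.08-fold lower there, both at low levels. COL1A2, a chain of type I collagen, likewise has a row in Huh-7 alone (24.2 ± 1.08 CPM), while its partner COL1A1 stood at 0.720 ± 0.121 CPM there and 4.17 ± 0.956 in Hep-3B. COL28A1, a collagen with von Willebrand domains, had 8.16 ± 1.02 CPM in Huh-7 and 6 counts in all in the Hep-3B controls. COL12A1 and COL14A1, which bind to the surface of fibrils, and COL26A1 were 36.1-fold, 99.7-fold and 73.3-fold higher in Huh-7. Its other abundant collagens, COL5A2 and COL18A1, differed less, by 3.02-fold and 1.74-fold.

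LAMA3 and LAMB3, an alpha and a beta chain of epithelial basement membranes, stood high in Hep-3B. LAMA3 was at 345 ± 24.6 CPM in Hep-3B against 12.4 ± 1.51 in Huh-7, and LAMB3 at 179 ± 7.62 against 2.11 ± 0.371 (SD, n = 3 each). These are 27.9-fold and 85.0-fold. LAMA5, the alpha chain of most adult basement membranes, was 6.62-fold higher in Hep-3B, while LAMC1, the gamma chain that most laminins share, gave 582 ± 48.6 and 584 ± 13.5 CPM (log2 0.008, SE 0.063, edgeR adjusted p = 0.907). Of the lysyl oxidases LOXL1 and LOXL2 were 74.7-fold and 26.2-fold higher in Hep-3B, LOXL4 was 1.66-fold higher in Huh-7, and LOX differed by 1.23-fold.

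COL4A1 and COL4A2, the chains of the commonest basement membrane network, were low in both lines. COL4A2 gave 3.66, 3.44 and 4.19 CPM in the Hep-3B controls and 0.106, 0.0431 and 0.210 in Huh-7. COL4A1 gave 0.602, 0.677 and 0.517 CPM in Hep-3B and 0 counts in each Huh-7 control. COL4A5 was the highest network chain per kb in both lines, with 131 ± 5.96 CPM in Hep-3B and 61.1 ± 1.02 in Huh-7. COL13A1, a transmembrane collagen, and LAMA2, the laminin chain of muscle, met the rule of 1 CPM in Hep-3B (8.57 ± 1.52 and 1.63 ± 0.198) with less than 0.1 CPM in Huh-7. In all, 20 members stayed under 1 CPM in the controls of both lines or had no row.

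The next comparisons asked which of these genes changed after siARD1 within each line. Among 44 members with enough counts to test in Hep-3B, 2 rose and 6 fell (edgeR adjusted p under 0.05), and the median log2 fold change was -0.070. Over all 15762 genes tested there 32.2% were called, 16.8% higher and 15.3% lower, with a median of -0.011. In Huh-7, 4 of 38 tested members rose and 21 fell, with a median of -0.37. Over all 15919 genes 40.1% were called, 21.2% higher and 18.9% lower, with a median of -0.0076. The share of members that fell was thus 13.6% in Hep-3B and 55.3% in Huh-7. With upper-quartile scaling the split of all calls in Huh-7 moved from 52.9% to 39.7% higher (24.4% of genes lower), and 3 members rose and 21 fell. The members that did not reach the test numbered 18 in Hep-3B and 24 in Huh-7, and 13 of the 62 were tested in neither line. Those 13 are COL6A5, COL6A6, COL8A1, COL8A2, COL10A1, COL15A1, COL19A1 to COL23A1, COL25A1 and LAMC3, none with a group mean above 0.464 CPM. In bulk RNA, fewer cells that make a transcript and less of it per cell cannot be told apart.

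**Figure D2:**
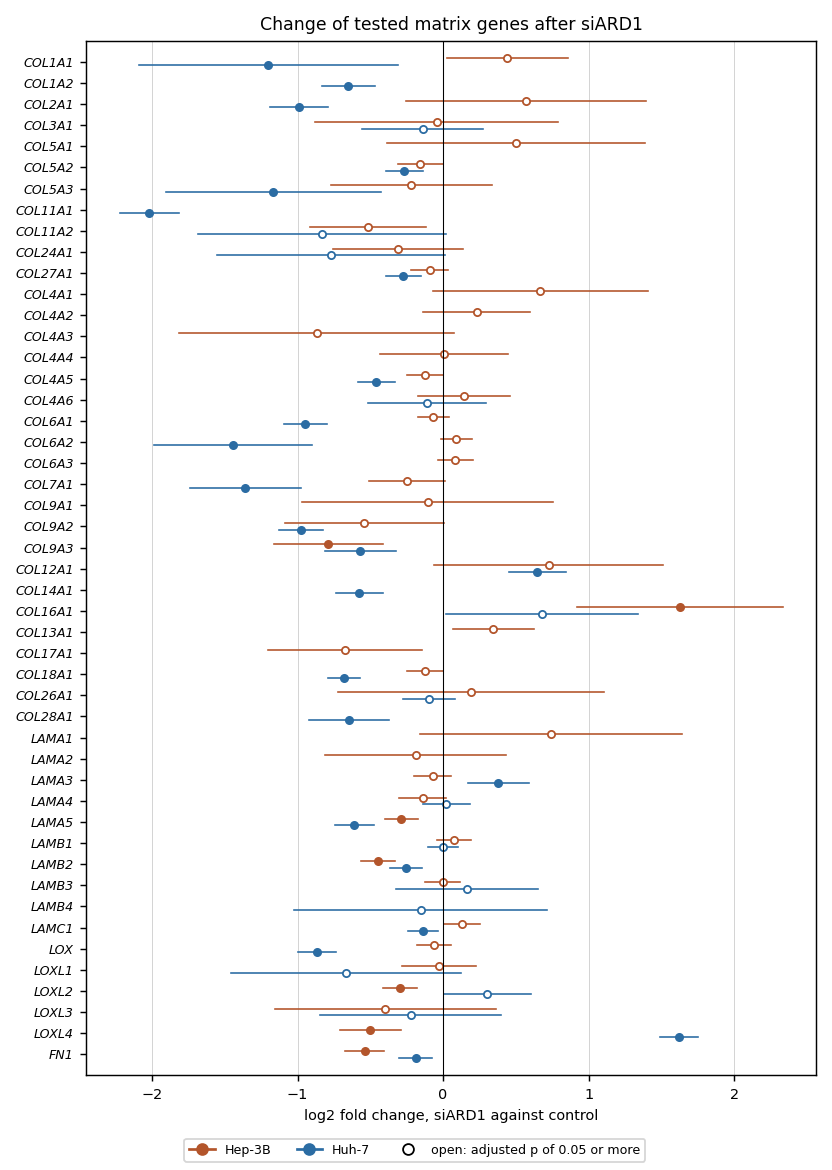
The log2 fold change of tested matrix genes after siARD1, with approximate 95% intervals from the SE, ordered by role from fibril-forming collagens at the top to FN1 (brown Hep-3B, blue Huh-7). Filled points passed the edgeR test, and the blue filled points lie mostly left of 0 among the collagens.

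In Huh-7, 7 of 10 tested fibril-forming collagen chains fell, with a median log2 fold change of -0.80. In Hep-3B 0 of 9 passed in either direction, with 1 at an unadjusted p under 0.05 (COL11A2) and 0 called by DESeq2, and a median log2 fold change of -0.092. Single chains passed there when a library was left out: COL11A2 fell without control 3 (adjusted p = 0.0275), COL5A2 fell without control 1 or siARD1 2 (0.0358 and 0.0261), and COL1A1 rose without control 1 or siARD1 3 (0.0457 and 0.0348). The chain with the largest fall in Huh-7 was COL11A1 (ENSG00000060718, chromosome 1, 102876467 to 103108872, minus strand, GRCh38). The DNA before its RefSeq start is printed because the gene carries that change. The printed 250 bases lie within the gene's GENCODE limits, outside its annotated exons, at chr1:103108523-103108772 on the minus strand of GRCh38.p14, with capitals at the matches to GGGCGG and CCAAT on either strand.
COL11A1: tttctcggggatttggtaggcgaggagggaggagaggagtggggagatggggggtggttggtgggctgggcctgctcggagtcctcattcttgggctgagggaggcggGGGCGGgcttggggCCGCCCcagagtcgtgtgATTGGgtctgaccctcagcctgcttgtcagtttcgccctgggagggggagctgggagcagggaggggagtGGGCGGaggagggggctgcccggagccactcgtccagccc
This stretch holds 3 matches to GGGCGG (the GC box), 1 to CCAAT and 0 to TATAAA. COL11A1 gave 27.9, 26.2 and 24.3 CPM in the controls and 6.20, 6.23 and 6.86 after siARD1. The 3 siARD1 libraries lay close together far below every control. The log2 fold change was -2.02 (SE 0.10, adjusted p = 2.77e-12).

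COL2A1, the most abundant collagen of Huh-7, gave 1316, 1444 and 1387 CPM in the controls and 801, 577 and 710 after siARD1. Every siARD1 library lay below every control, with the second siARD1 library lowest, and the gene fell by 49.7% (log2 fold change -0.99, SE 0.10, adjusted p = 3.62e-05). It dominates the collagen total: all listed collagen chains summed to 2478, 2593 and 2521 CPM in the Huh-7 controls and to 1600, 1409 and 1614 after siARD1. Without COL2A1 the sums were 1162, 1149 and 1134 and then 800, 833 and 904, so the total was lower with and without it. In Hep-3B the same sums were 3580, 3898 and 3729 and then 3786, 3794 and 3809 CPM, and overlapped.

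COL1A2 gave 26.7, 24.3 and 25.4 CPM in the Huh-7 controls and 14.3, 16.7 and 17.6 after siARD1, apart in every library (log2 fold change -0.65, SE 0.093, adjusted p = 8.75e-06). Its partner chain COL1A1 stood under 1 CPM there and fell from 0.620, 0.864 and 0.789 to 0.155, 0.363 and 0.471 (log2 fold change -1.20, SE 0.45, adjusted p = 0.0387), a call that ended without control 2, control 3, siARD1 1 or siARD1 2 (adjusted p from 0.0775 to 0.173) and with DESeq2 or no filter on low counts. The type V chains moved alike in sign, with COL5A2, which limits the width of type I fibrils, at 375, 396 and 391 and then 286, 323 and 357 CPM (-0.27, SE 0.065, adjusted p = 0.00276). COL5A3, a rarer type V chain, was near 1 CPM, with 1.13, 1 and 1.05 against 0.620, 0.363 and 0.419 (-1.17, SE 0.38, adjusted p = 0.0166), and missed the threshold without control 3, siARD1 2 or siARD1 3. COL27A1, a cartilage fibril collagen, fell from a mean of 131 to 108 CPM (-0.27, SE 0.061, adjusted p = 0.00114). The fibril-forming chains that did not pass in Huh-7 were COL3A1, COL11A2 and COL24A1, with log2 fold changes of -0.14, -0.83 and -0.77, all at about 3 CPM or less. Markers of fibroblasts and stellate cells, the usual makers of these collagens, summed to 25.6 to 30.5 CPM in the Huh-7 controls and 20.5 to 25.9 after siARD1. Of the 10 markers 8 are listed, 5 were tested and 1 fell (PDGFRA, log2 fold change -0.85). PDGFRB (0.097), RGS5 (-0.052), ACTA2 (0.15) and LUM (0.58) did not pass, and DCN was at 0 counts in the controls. The part of these markers in the falls was not tested. In the Hep-3B controls the same markers summed to 168 to 181 CPM, most of it LUM (mean 141 CPM). Of 6 tested there, PDGFRB rose (0.234 CPM in the controls, log2 fold change 1.63, adjusted p = 0.0107) and the others did not pass.

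Collagens that attach to fibrils moved in both directions in Huh-7, where 3 of 5 tested chains fell and 1 rose, against 1 and 1 of 5 in Hep-3B. COL9A2 gave 54.8, 53.6 and 53.0 CPM in the Huh-7 controls and 30.8, 25.3 and 26.0 after siARD1, with no overlap (log2 fold change -0.98, SE 0.077, adjusted p = 2.42e-09). In Hep-3B, at a lower level, it gave 3.13, 2.38 and 1.99 and 1.27, 2.48 and 1.39, and the groups overlapped (-0.54, SE 0.28, adjusted p = 0.150). Its partner COL9A3 was lower after siARD1 in both lines. The Hep-3B values were 7.22, 6.15 and 4.71 and then 4.20, 3.30 and 3.08 (-0.79, SE 0.19, adjusted p = 0.00477), and the Huh-7 values 10.2, 9.55 and 9.77 and 6.92, 6.33 and 6.65 (-0.57, SE 0.12, adjusted p = 0.000848). In neither line did a siARD1 library of COL9A3 reach a control.

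COL14A1, which binds mature fibrils, fell in Huh-7 from 32.4, 31.7 and 31.3 to 22.5, 19.2 and 22.3 CPM (log2 fold change -0.58, SE 0.083, adjusted p = 9.36e-06). COL12A1, its close relative, went the other way, from 22.7, 25.5 and 22.0 to 31.9, 35.0 and 43.1 (log2 fold change 0.65, SE 0.10, adjusted p = 3.51e-05), and is the collagen that rose there. All 3 siARD1 values of COL12A1 lay above the controls, and those of COL14A1 below. In Hep-3B COL12A1 stood at a mean of 0.574 CPM and gave 0.73 (SE 0.40, adjusted p = 0.183). COL16A1, a collagen of several tissues that also lies along fibrils, rose in Hep-3B from 0.391, 0.406 and 0.825 to 2.24, 1.52 and 1.39 CPM (log2 fold change 1.63, SE 0.36, adjusted p = 0.00260). The control libraries held 33 counts of it in all, and control 3 was the highest of them. In Huh-7 it gave 0.507, 1.05 and 0.833 and 1.19, 1.56 and 1.15, again without overlap, but did not pass (0.68, SE 0.34, adjusted p = 0.114).

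The collagen VI chains COL6A1 and COL6A2 fell in Huh-7, where they were lower than in Hep-3B, and did not pass in Hep-3B. COL6A3, with 22 counts in the Huh-7 controls and 17 after siARD1, and COL6A6, with 2 and 20, were too low to test in that line. COL6A1 gave 46.2, 46.2 and 46.4 CPM in the Huh-7 controls and 24.6, 21.8 and 25.6 after siARD1 (log2 fold change -0.95, SE 0.076, adjusted p = 2.99e-09). COL6A2, its partner chain, gave 2.82, 2.32 and 2.28 and 1.14, 0.830 and 0.733 (log2 fold change -1.44, SE 0.28, adjusted p = 0.000261). Both had every siARD1 library below every control, and the 3 controls of COL6A1 were nearly equal. In Hep-3B COL6A1 gave 874, 882 and 819 and then 834, 814 and 809 CPM, and COL6A3 1687, 1974 and 1932 and then 1957, 1950 and 2019, which overlapped. COL6A2 gave 468, 488 and 458 and 505, 500 and 499 there, with the siARD1 values above the controls by less than the test could call (0.090, SE 0.054, adjusted p = 0.227). The approximate 95% intervals of these 3 changes ran from -0.17 to 0.039, -0.017 to 0.20 and -0.037 to 0.20 on the log2 scale.

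Of the basement membrane chains of collagen IV, COL4A5 and COL4A6 share a start region on chromosome X and are read away from each other, with RefSeq starts 380 bases apart. The region is shown because the levels on its sides differ: the printed 300 bases end at the base before the COL4A5 start (chrX:108439538-108439837, plus strand, GRCh38.p14), with capitals at CCAAT and TGACNNNGC (the antioxidant response core) on either strand.
COL4A6-COL4A5: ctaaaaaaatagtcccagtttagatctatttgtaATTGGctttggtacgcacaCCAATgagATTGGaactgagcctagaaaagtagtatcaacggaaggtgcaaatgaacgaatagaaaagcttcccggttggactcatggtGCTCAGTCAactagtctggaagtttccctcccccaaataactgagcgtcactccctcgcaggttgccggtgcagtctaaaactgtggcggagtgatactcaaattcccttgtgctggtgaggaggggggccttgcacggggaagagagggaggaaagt
It holds 3 matches to CCAAT, 1 to TGACNNNGC and 0 to TATAAA or GGGCGG. Per kb of exon the controls held 11 ± 0.502 CPM of COL4A5 and 0.686 ± 0.116 of COL4A6 in Hep-3B, and 5.15 ± 0.0856 and 0.504 ± 0.122 in Huh-7. After siARD1 COL4A5 fell in Huh-7 from 65.8, 64.6 and 62.8 to 47.1, 49.3 and 44.1 CPM (log2 fold change -0.46, SE 0.064, adjusted p = 6.63e-06). COL4A6 gave 5.24, 5.96 and 3.59 and 4.03, 3.69 and 5.97, with overlapping groups and a wide interval (-0.51 to 0.30 on the log2 scale). In Hep-3B neither passed, with COL4A5 at 124, 128 and 116 and 109, 118 and 110 CPM (-0.13, SE 0.063, adjusted p = 0.139).

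COL4A1 had 0, 0 and 0 counts in the Huh-7 controls and 2, 6 and 6 after siARD1, too few to test within that line. In Hep-3B it gave 0.565, 0.638 and 0.485 CPM and then 0.863, 1.17 and 0.655 (0.67, SE 0.38, adjusted p = 0.190), and COL4A2 3.43, 3.25 and 3.93 and then 3.39, 4.95 and 4.05 (0.23, SE 0.19, adjusted p = 0.378). Neither passed, although the COL4A1 values did not overlap. Among all tested Hep-3B genes 45% had groups that did not overlap, and 50% in Huh-7. The other 2 chains, COL4A3 and COL4A4, did not pass in Hep-3B (log2 fold changes -0.87 and 0.005) and were too low to test in Huh-7.

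COL18A1, a basement membrane collagen whose end piece is endostatin, fell in Huh-7 from 287, 272 and 273 to 173, 161 and 184 CPM (log2 fold change -0.68, SE 0.055, adjusted p = 3.91e-09). COL7A1, which makes the anchoring fibrils under epithelia, fell from 10.2, 7.55 and 8.50 to 2.17, 3.74 and 4.29 (log2 fold change -1.36, SE 0.20, adjusted p = 1.63e-05), with the first siARD1 library lowest. Both were apart in every library. In Hep-3B they gave log2 fold changes of -0.12 and -0.25 and did not pass. In GENCODE v29, 16.4% of the annotated exon bases of COL18A1 lie over the folate carrier gene SLC19A1 on the opposite strand, and whether the counting used strand is not given in the sources used here. COL28A1 fell in Huh-7 from 7.50, 9.59 and 8.68 to 5.68, 5.09 and 5.76 (-0.65, SE 0.14, adjusted p = 0.000860), while COL26A1 gave overlapping groups (-0.10, SE 0.090, adjusted p = 0.420). The transmembrane chains COL13A1 and COL17A1, the second a hemidesmosome protein, were tested in Hep-3B alone and gave 0.34 and -0.67, with adjusted p of 0.0753 and 0.0674. Without the first Hep-3B control, COL13A1 and COL1A1 passed as rises, which brought the members that rose in that line from 2 to 4.

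**Figure D3:**
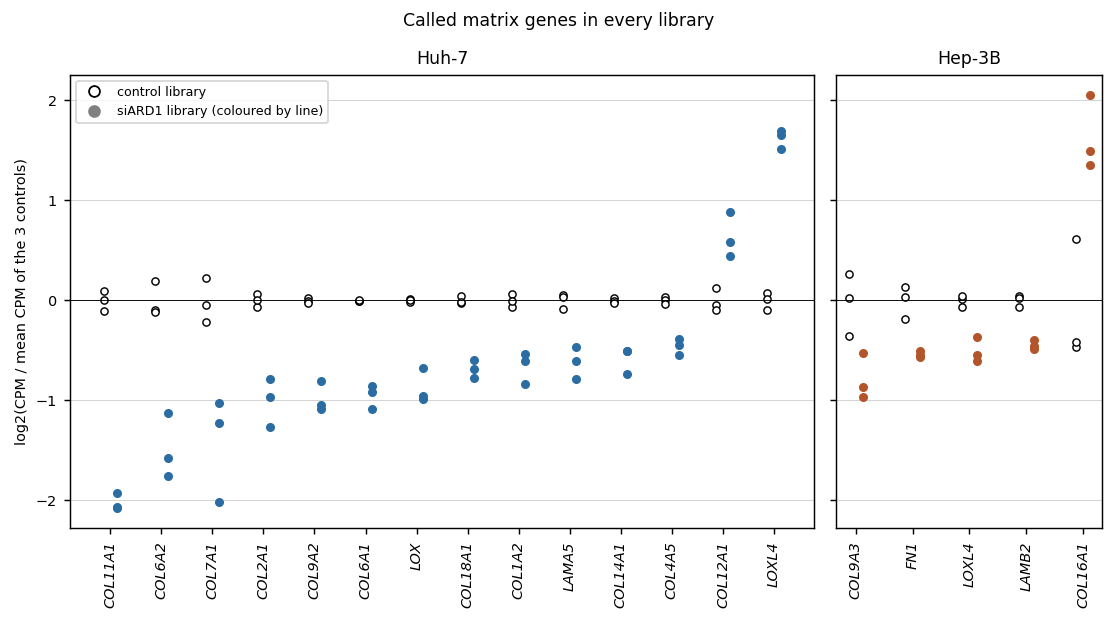
Each library of the matrix genes named by rule as called, as log2 of its CPM over the mean of the 3 controls of that line (open black, controls; filled, siARD1; left Huh-7, right Hep-3B). In each of the 19 columns the filled points lie on one side of the open ones, and 12 of the 14 Huh-7 columns lie below 0. The genes were drawn because they passed, so this separation is largely set by the choice. Of all tested genes 45% in Hep-3B and 50% in Huh-7 show it.

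Among laminins the alpha, beta and gamma chains did not move as one. Of 10 tested chains LAMA5 and LAMB2 fell in Hep-3B, and of 9 LAMA5, LAMB2 and LAMC1 fell in Huh-7. In Hep-3B LAMA3 gave 297, 334 and 341 and then 298, 306 and 322 CPM, and LAMB3 161, 169 and 175 and then 166, 159 and 178. Both overlapped, with approximate 95% intervals of -0.20 to 0.054 and -0.13 to 0.12 on the log2 scale. LAMA3 rose in Huh-7 from 14.1, 14 and 11.1 to 17.2, 16.6 and 17.1 CPM (0.38, SE 0.11, adjusted p = 0.00625), and missed the threshold without control 3 (0.0678). LAMB3 gave 0.16 (adjusted p = 0.636).

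LAMA5 and LAMB2, chains of mature basement membranes, were lower after siARD1 in both lines. LAMA5 gave 1280, 1356 and 1180 CPM and then 1068, 1024 and 1038 in Hep-3B (-0.29, SE 0.059, adjusted p = 0.00151), and 223, 220 and 202 and then 125, 142 and 156 in Huh-7 (-0.61, SE 0.067, adjusted p = 7.42e-07). LAMB2 gave 293, 289 and 273 and then 203, 217 and 208 in Hep-3B (-0.45, SE 0.058, adjusted p = 3.27e-05), and 156, 148 and 151 and then 117, 136 and 128 in Huh-7 (-0.26, SE 0.057, adjusted p = 0.00112). In all 4 pairs of groups the siARD1 libraries lay below the controls, as in 22.3% of all tested genes in Hep-3B and 23.9% in Huh-7. LAMB1, the beta chain of the most widespread laminins, gave means of 866 and 913 CPM in Hep-3B and 611 and 610 in Huh-7. Its approximate 95% intervals of -0.039 to 0.19 and -0.11 to 0.10 on the log2 scale include 0. LAMC1 gave 493, 576 and 571 and then 609, 590 and 597 CPM in Hep-3B (0.13, SE 0.064, adjusted p = 0.128) and 624, 600 and 621 and then 569, 542 and 567 in Huh-7 (-0.14, SE 0.052, adjusted p = 0.0379). The Huh-7 call of LAMC1 is marginal. It ended without any one of 5 of the 6 libraries, with no filter on low counts and with a replicate block (adjusted p from 0.0522 to 0.154). LAMA4 did not pass in either line (-0.14 and 0.023), nor did LAMA1 and LAMA2 in Hep-3B or LAMB4 in Huh-7.

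The lysyl oxidases split within the family and between the lines. LOX (ENSG00000113083, chromosome 5, 122063195 to 122078360, minus strand, GRCh38), which cross-links collagen and elastin, gave 163, 167 and 166 CPM in the Huh-7 controls and 85.2, 83.7 and 104 after siARD1. The siARD1 libraries lay well below the controls, with siARD1 3 the highest of them (log2 fold change -0.87, SE 0.067, adjusted p = 6.14e-09). In Hep-3B, at a like level, LOX gave 190, 182 and 175 and 181, 173 and 170 and the groups overlapped (log2 fold change -0.065, SE 0.059, adjusted p = 0.433). LOXL4 (ENSG00000138131, chromosome 10, 98247690 to 98268250, minus strand, GRCh38), a relative with scavenger receptor domains, moved in opposite directions. It gave 34.6, 33.2 and 30.6 CPM in the Huh-7 controls and 93.6, 103 and 106 after siARD1, a rise with no overlap (log2 fold change 1.62, SE 0.067, adjusted p = 9.95e-14). In Hep-3B it gave 17.9, 16.8 and 18.2 and 11.6, 13.7 and 12.1 (log2 fold change -0.50, SE 0.11, adjusted p = 0.00200), and every siARD1 library was below the controls.

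The stretches before the starts of LOX and LOXL4 that hold no annotated exon are printed because these genes moved in opposite directions in Huh-7. They lie at chr5:122078361-122078509 and chr10:98268251-98268444 on the minus strand of GRCh38.p14, with capitals at ACGTG (the core of the hypoxia response element) and CCAAT in LOX and at GGGCGG in LOXL4, on either strand.
LOX: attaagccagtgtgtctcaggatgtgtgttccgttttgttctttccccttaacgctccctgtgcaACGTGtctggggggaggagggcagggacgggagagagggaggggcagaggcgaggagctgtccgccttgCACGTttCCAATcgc
LOXL4: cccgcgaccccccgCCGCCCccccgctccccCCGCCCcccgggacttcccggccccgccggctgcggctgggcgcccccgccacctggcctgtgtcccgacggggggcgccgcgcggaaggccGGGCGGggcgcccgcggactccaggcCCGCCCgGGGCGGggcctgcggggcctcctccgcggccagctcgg
The LOX stretch of 149 bases holds 2 matches to ACGTG and 1 to CCAAT, and the full 250-base window, part of which is exon, holds 4 to ACGTG and 1 to GGGCGG. The windows of the other LOX starts hold 1 to ACGTG each. The LOXL4 stretch of 194 bases holds 5 matches to GGGCGG, and ACGTG was not found in it. Its GC content was 88.1% against 59.1% in the LOX stretch.

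LOXL2, which also acts on basement membrane collagen IV, fell in Hep-3B from 153, 151 and 158 to 128, 120 and 130 CPM (-0.29, SE 0.060, adjusted p = 0.00141). In Huh-7 it gave 6.99, 7.14 and 5.65 and then 6.51, 9.50 and 8.37, which overlapped (0.31, SE 0.15, adjusted p = 0.117), and it passed as a rise without siARD1 1 (adjusted p = 0.0287). LOXL1, which works on elastin, gave -0.027 in Hep-3B and -0.67 in Huh-7, and LOXL3 gave -0.40 and -0.22. None of these 4 passed. Of the exon bases of LOXL3 14.3% lie over HTRA2 on the opposite strand, and of LOXL1 9.21% over LOXL1-AS1. Summed over the family, Huh-7 controls held 207, 210 and 204 CPM and siARD1 libraries 187, 197 and 219, so the fall of LOX and the rise of LOXL4 left sums that overlapped. In Hep-3B the sums were 413, 409 and 405 and then 370, 372 and 357, and did not.

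FN1 (ENSG00000115414, chromosome 2, 215360440 to 215436172, minus strand, GRCh38) was lower after siARD1 in both lines. In Hep-3B it gave 7723, 9676 and 9003 CPM in the controls and 5951, 6197 and 6045 after siARD1. The first control was the lowest, and still above every siARD1 library (log2 fold change -0.54, SE 0.068, adjusted p = 3.23e-05). In Huh-7 it gave 6682, 6581 and 6528 and then 5818, 5408 and 6144, again without overlap but with a smaller step (log2 fold change -0.19, SE 0.059, adjusted p = 0.0138). That call ended without control 3, siARD1 1 or siARD1 2 (adjusted p = 0.0632, 0.0520 and 0.0727). Hepatocyte markers, of the cells that secrete plasma fibronectin, also moved: 6 of 12 fell in Huh-7 and 8 of 10 tested in Hep-3B. Over all tested genes 18.9% fell in Huh-7 and 15.3% in Hep-3B. Of the 8 tested Hep-3B markers above the trace share 6 fell, while the others did not pass. The part of hepatocyte markers in the fall of FN1 was not tested.

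The windows upstream of the genes were read for motifs over all 34786 RefSeq windows of 250 bases, of which 46 of the 62 members have at least one. Matches on either strand were found in 10.8% of windows for TATAAA, 32.0% for CCAAT, 42.6% for GGGCGG, 18.5% for ACGTG, 6.59% for TGANTCA (AP-1), 9% for AACAAT (the SOX core) and 10.9% for TGACNNNGC. Of the 14 members with a window that fell in Huh-7, 12 held GGGCGG, 6 CCAAT, 3 TATAAA, 1 TGACNNNGC, 0 TGANTCA and 0 AACAAT, counted over all windows of a gene. ACGTG was in 1 of the 14, LOX. Of the 3 that rose all held GGGCGG, and COL12A1 held ACGTG and LAMA3 TGANTCA. Of the 11 that did not pass 7 held GGGCGG and 4 CCAAT. The percentages are per window and the member counts per gene, and some genes have more than 1 window, so they cannot be set side by side. A match is a run of letters and not a bound site.

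Set side by side, 33 members were tested in both lines. COL9A3, FN1, LAMA5 and LAMB2 fell in both. LOXL4 fell in Hep-3B and rose in Huh-7. A further 13 fell in Huh-7 and 2 rose there without passing in Hep-3B, 1 rose and 1 fell in Hep-3B without passing in Huh-7, and 10 passed in neither. The same counts over all genes were not made, so these describe the members only. Passing in one line and not in the other does not show a difference, so the difference itself was tested in one fit of all 12 libraries. Of 48 members tested 16 passed, 11 with a lower effect in Huh-7 and 5 with a higher one, which is 33.3% beside 31.4% of all genes (16.2% lower and 15.2% higher). The smallest adjusted p values were those of LOXL4 (log2 2.10, SE 0.12, adjusted p = 3.27e-13), COL6A1 (log2 -0.90, SE 0.089, adjusted p = 1.57e-08), LOX (log2 -0.82, SE 0.094, adjusted p = 1.77e-07) and COL6A2 (log2 -1.54, SE 0.19, adjusted p = 5.89e-07). For COL9A3, LAMB2, COL5A2, COL9A2 and COL12A1 the difference did not pass, with log2 values of 0.21, 0.17, -0.13, -0.45 and -0.12 and adjusted p of 0.525, 0.122, 0.415, 0.182 and 0.833.

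Other genes of the pathway were counted from 8 lists. Among those that fold, modify and export collagen, 4 of 26 rose and 7 fell in Huh-7 and 5 of 25 rose and 1 fell in Hep-3B. In Huh-7 the first by p were P3H2, a prolyl 3-hydroxylase (1.41), PLOD2, the lysyl hydroxylase of collagen ends (-0.61), and SERPINH1, the collagen chaperone (0.58), and in Hep-3B TMEM38B (0.46), MIA2 (0.31) and P3H2 (-0.50). So P3H2 rose in Huh-7 and fell in Hep-3B. Of the genes that trim procollagen and order fibrils, 1 of 9 rose and 3 fell in Huh-7 (MEP1A -0.52, the C-proteinase enhancer PCOLCE -1.40, FMOD -0.53) and 1 of 8 rose and 2 fell in Hep-3B (ADAMTS14 -1.26, PCOLCE2 -0.29, FMOD 1.90).

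The basement membrane partners of laminin and collagen IV were counted next: in Huh-7 7 of 12 fell and the other 5 did not pass (SMOC1 -0.65, the laminin linker NID1 -0.40, TINAGL1 -0.63). In Hep-3B 4 of 11 rose and 2 fell, with FRAS1 (2.01), TINAGL1 (0.67) and the laminin receptor DAG1 (-0.25) first by p. Of elastic fibre genes 2 of 15 rose and 5 fell in Huh-7 and 2 of 10 rose and 1 fell in Hep-3B, and LTBP1, which holds latent TGF-beta in the matrix, rose in both (1.08 and 0.67). Of receptors for collagen, laminin and fibronectin 3 of 20 rose and 3 fell in Huh-7 (CD44 1, BCAM -0.63, ITGAV 0.78), and 6 of 20 rose and 3 fell in Hep-3B (ITGA6 0.62, ITGB4 -0.56, DDR2 1.66). ITGA6 and ITGB4 are the 2 chains of one laminin receptor and went in opposite directions.

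Of matrix metalloproteinases and their inhibitors 2 of 13 rose and 6 fell in Huh-7 (MMP11 -0.51, TIMP1 1.13, RECK -0.46) and 3 of 16 rose and 4 fell in Hep-3B (MMP1 0.72, TIMP4 0.89, MMP7 -1.25). Among other matricellular glycoproteins in Huh-7 7 of 14 rose and 2 fell, led by SPP1 (1.87), THBS1 (2.04) and CCN2 (1.48), while in Hep-3B 5 of 14 rose and 5 fell (VCAN 0.81, SPP1 -0.45, CCN2 0.49). Of regulators of matrix genes 7 of 23 rose and 2 fell in Huh-7, among them SMAD7, an inhibitor of TGF-beta signalling (0.82), HIF1A, the hypoxia factor (0.46), and TGFB2 (0.76). In Hep-3B 6 of 23 rose and 2 fell (SKIL 0.82, YAP1 0.33, TGFBR3 0.42). These shares are read beside the 40.1% of all tested genes called in Huh-7 and 32.2% in Hep-3B.

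**Figure D4:**
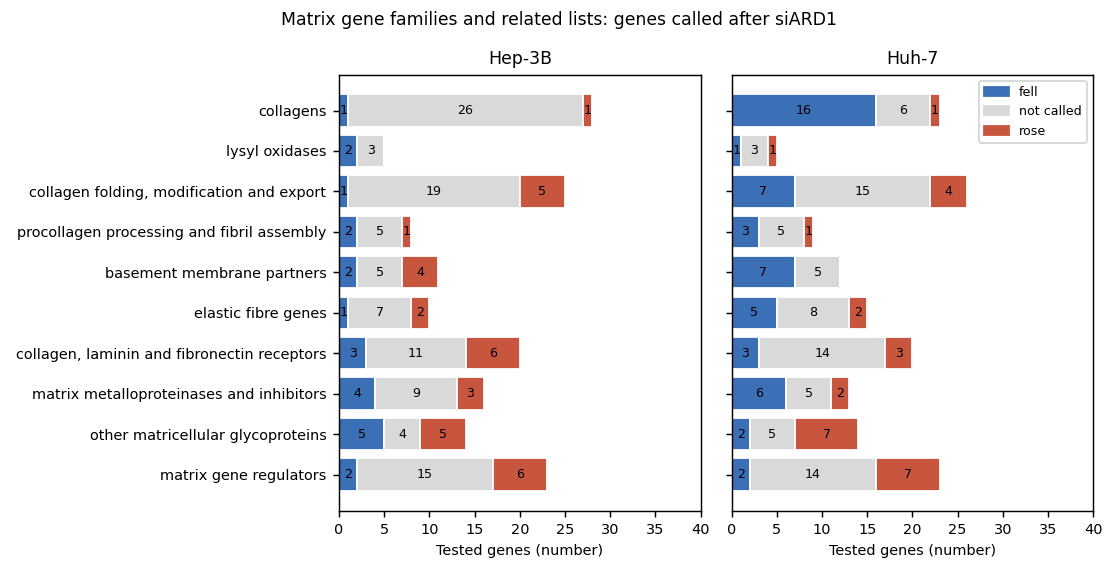
Number of tested genes that fell (blue), were not called (grey) or rose (red) after siARD1, for the collagens and lysyl oxidases and for 8 related lists, in Hep-3B (left) and Huh-7 (right). The Huh-7 collagens have 16 that fell and 1 that rose of 23, against 1 and 1 of 28 in Hep-3B.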

How the data were processed

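Per the labels' protocols, libraries were directional and made from total RNA after removal of ribosomal RNA. The authors deposited raw read counts per gene in 1 table per line, and cutadapt 4.6, STAR 2.7.11b and GRCh38 appear in the submitters' processing notes. How the reads were counted (tool, annotation, use of strand) is not given in the sources used here. The tables list 25720 (Hep-3B) and 25714 (Huh-7) genes.

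Each line was fitted alone with edgeR 4.0.16 in R 4.3.3: filterByExpr (minimum count 10, total 15), TMM scaling, the quasi-likelihood F-test and Benjamini-Hochberg adjustment over all tested genes at 0.05. Every adjusted p in the text comes from this test unless DESeq2 is named. The SE was the size of the log2 change divided by the root of F. The difference between the lines used 1 fit of 12 libraries, and the control levels 1 of 6, both over the 22730 genes listed in both tables. Levels per kb used the union of exons in GENCODE 29, and promoter sequences are RefSeq's, on GRCh38.p14.

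Genes named with every library passed the test with an absolute log2 fold change of at least 0.4 and at least 1 CPM, up to 14 per line by adjusted p. Control levels were named for the 12 highest members per line and for those that reached 1 CPM in one line but stayed under 0.1 CPM in the other. LOX, FN1, COL4A1 and COL4A2 were named throughout, and other members were added to complete a group after their values were seen. One member is counted but not reported here by name. Members and lists were chosen with earlier results of these data known. Alternatives were RLE and upper-quartile scaling, other filters, DESeq2 1.42.0, a stricter threshold, a replicate block, a joint fit and leaving out each library.

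Recovery was tried on simulated counts, with a dispersion set for every gene and not estimated from these libraries. Changes were planted only in genes with an expected count of at least 20. On simulated counts (dispersion 0.01, 50 changed genes per size), log2 changes of 0.3, 0.5, 1 and 2 were called in 16%, 54%, 96% and 100% for Hep-3B and 10%, 64%, 96% and 100% for Huh-7. For the difference between the lines these shares were 4%, 18%, 90% and 100%. They hold for the set dispersion and are not the sensitivity for each member. Abundant members were called here at smaller changes than 0.3 (FN1 -0.19 in Huh-7, LAMA5 -0.29 in Hep-3B). Counts of replicates differed by more than sampling noise in every group, which does not show that they came from separate cultures. Each library was counted as 1 replicate.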

Additional observations from a re-analysis of the deposited data

Results flagged for a closer look

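The siARD1 effect on 16 matrix genes differed between the lines by the edgeR test of the difference itself, given here as Huh-7 minus Hep-3B on the log2 scale with the adjusted p. They are 33.3% of the members tested, beside 31.4% of all genes. Among collagens the difference was negative, that is lower in Huh-7, for COL1A1 (-1.66, 0.00944), COL2A1 (-1.58, 0.0136), COL6A1 (-0.90, 1.57e-08) and COL6A2 (-1.54, 5.89e-07). It was negative too for COL4A5 (-0.35, 0.00320), COL7A1 (-1.12, 0.00123), COL14A1 (-1.23, 0.0226) and COL18A1 (-0.58, 9.28e-06).

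COL2A1 stood in Hep-3B at 0.0281 to 0.0630% of its Huh-7 control level in the controls, around the trace between the lines, and at 0.0465 to 0.0668% after siARD1. COL14A1 stood at 0.921 to 1.03% and 1.09 to 2.14%, low but above that trace. The COL2A1 difference missed the threshold without Hep-3B control 1, siARD1 2 or siARD1 3 (adjusted p = 0.0810, 0.0793 and 0.0624). The COL14A1 difference missed it without Hep-3B control 1 or siARD1 2 (0.0637 and 0.187). For COL4A1 the fitted value was 4.598 (adjusted p = 0.0149), but its Huh-7 controls held 0 counts and the siARD1 libraries 2, 6 and 6, so that value depends on the prior count and is no estimate of size.

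Among laminins the difference was negative for LAMA5 (-0.34, 0.00703) and LAMC1 (-0.28, 0.00993) and positive for LAMA3 (0.44, 0.00281). The lysyl oxidases held both signs, with LOX at -0.82 (1.77e-07), LOXL2 at 0.58 (0.00164) and LOXL4 at 2.10 (3.27e-13). FN1 fell in both lines, with a difference of 0.33 (0.00790). What lies behind these differences was not tested. NAA10 itself fell further in Huh-7 than in Hep-3B, so line and depth of knockdown cannot be told apart in them.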

How the results depend on the processing

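No member called in a comparison changed sign under any alternative run. In Hep-3B 8 of 8 calls held under all of them, in Huh-7 19 of 25, for the difference 13 of 16 and for control levels 41 of 42 (COL4A6 did not). Calls that ended under at least one included COL1A1, COL5A3, LAMA3, LAMC1 and FN1 in Huh-7, and COL2A1, COL4A1 and COL14A1 for the difference (COL4A1 at a false discovery rate of 0.01 alone). Leaving out single libraries gave 2 to 4 rises and 6 to 9 falls in Hep-3B, 2 to 5 and 17 to 20 in Huh-7, 5 to 6 and 9 to 12 for the difference and 13 to 14 and 28 to 29 for control levels. The 4 rises in Hep-3B came without control 1, and the 2 in Huh-7 without control 3, when LAMA3 missed the threshold. Collagens that fell in Huh-7 numbered 16 with RLE and upper-quartile scaling and 15 with DESeq2.

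Members that were not called changed sign under some alternative in 7 cases in Hep-3B, 6 in Huh-7, 10 for the difference and 2 for control levels, some of them widely. The difference ran from -4.70 to 3.501 for COL28A1, -2.55 to 1.93 for LAMA1, -0.605 to 2.83 for COL13A1 and -0.376 to 0.271 for COL12A1, and LAMA2 ran from -0.604 to 0.086 in Hep-3B. The values of members named with their change follow. In Hep-3B LAMB3 gave 1.2e-05 with no filter and -0.049 to 0.033 when libraries were left out, with positive values without control 3 (0.027), siARD1 1 (0.004) and siARD1 2. LOXL1 ran from -0.212 to 0.101 there, positive without control 2 (0.027), siARD1 1 (0.015) and siARD1 3. In Huh-7 LAMA4 gave -0.040 with upper-quartile scaling and -0.042 without siARD1 3, and LAMB1 0.003 with no filter. When libraries were left out LAMB1 ran from -0.031 to 0.028, positive without control 1 (0.020), siARD1 2 and siARD1 3 (0.002). Its lowest value over all alternatives was -0.066. COL4A6 ran from -0.347 to 0.061, positive without control 2 and siARD1 2 (0.025). Without siARD1 2 COL26A1 gave 0.013 (lowest -0.210) and LAMB3 -0.070 (highest 0.365). When libraries were left out the control level of LAMC1 ran from -0.062, without Hep-3B control 1, to 0.045. Its highest value over all alternatives was 0.111. The cause was not tested.

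The labels do not say whether replicate numbers pair the samples, and the main fits did not pair them. Deviations of same-numbered libraries correlated at 0.029, 0.104 and 0.095 in Hep-3B and 0.0988, -0.105 and 0.0128 in Huh-7, which cannot settle it. In Hep-3B every siARD1 library correlated best with its own number, a hint from the data and not the design. With a replicate block 3 members rose and 7 fell in Hep-3B and 3 and 20 in Huh-7, with 5 and 11 for the difference and 13 and 29 for control levels. The block ended the Huh-7 call of LAMC1 (adjusted p = 0.0522), and with it COL11A2 passed as a fall and COL1A1 as a rise in Hep-3B (0.0445 and 0.0467). Over all genes, 2921 rose and 2676 fell in Hep-3B and 3353 and 2975 in Huh-7.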
